A study of Mus musculus with 4 samples.

Results

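Mitochondrial ribosomal protein genes encode the protein subunits of the ribosome inside mitochondria, and their chromatin occupancy by p53 and PPAR-alpha in mouse thymus is described here. They were taken as the protein-coding genes of the RefSeq GRCm38 gene table whose symbol is Mrpl or Mrps followed by a digit, which gave 78 of 21887 genes. The letter in the symbol put 49 in the large subunit and 29 in the small subunit. Chromatin immunoprecipitation and sequencing (ChIP-seq) recovers DNA bound by a protein with an antibody against that protein. Thymus was collected from p53 AD/AD mice aged 4 weeks, and the libraries were 2 for p53, 1 for PPAR-alpha and 1 input (sheared chromatin without immunoprecipitation). All 4 libraries carried the germline AD alteration on both copies of the p53 gene, and the design text calls the altered protein dimeric, whereas normal p53 works as a tetramer. No library from wild-type mice was used here, so nothing below compares dimeric with normal p53. Reads were 75 nt long for PPAR-alpha but 50 nt for p53 and for input, so effects of antibody and of read length cannot be told apart.

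For each ChIP library the authors deposited a list of peak summits, the single base where a called peak was highest, with a score. No label states its unit, and it was taken to be a −log10-transformed p- or q-value. The lists held 3608 summits in p53 replicate 1, 4767 in p53 replicate 2 and 4070 in the PPAR-alpha library. A gene counted as near a summit when a summit lay within 1 kb of either end of the gene, and a window of 5 kb served as the wider rule. The labels do not say that the p53 libraries came from separate mice, so their difference measures the spread between these libraries and may be technical. Of 13 genes that mark thymocytes, such as Cd3e and Rag1, 8 lay near a summit in p53 replicate 1, where all coding genes gave 9.21%. It was 7 genes in p53 replicate 2, beside 11.9%, and 10 for PPAR-alpha, beside 8.80%. Bcl11b and Ptcra had none within 1 kb in any list. All 13 had a summit within 5 kb in at least 1 list, where all coding genes gave 24.7%. Thymus is a mixture of cells, and in such bulk tissue fewer cells carrying a bound site and weaker binding per cell cannot be told apart. Expression was not measured in these files, and its part in the results was not tested.

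Mitochondrial ribosomes translate the few proteins encoded by mitochondrial DNA, all of them core subunits of the respiratory chain and the ATP synthase. Their RNA comes from mitochondrial DNA, whereas every protein subunit is encoded in the nucleus, made in the cytosol and imported. The small subunit reads the messenger RNA, and the large subunit joins amino acids and feeds the new protein towards the inner membrane. Many nuclear genes for mitochondrial proteins start in CpG-rich promoters that often face a neighbouring gene and carry sites for the ETS family, NRF1 and YY1. PPAR-alpha is a nuclear receptor that binds DNA with RXR and is best known for switching on genes of fatty acid oxidation, and p53 is a stress-activated transcription factor.

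Mrpl32 carried by far the highest score of the family within 1 kb in all 3 lists. It encodes a large-subunit protein that a protease of the inner mitochondrial membrane must trim before it joins the ribosome. Its gene lies on chromosome 13 from 14610301 to 14613037 on the minus strand, head to head with Psma2, which encodes a subunit of the proteasome core. The annotated starts of the pair lay 205 bp apart, and all 3 summits fell in the space between them. The summit scores were 33.5 in p53 replicate 1 and 37.3 in p53 replicate 2, against 37.1 in the PPAR-alpha list. The next-highest member score within 1 kb was 11.6 in p53 replicate 1, 8.48 in p53 replicate 2 and 8.57 in the PPAR-alpha list, so Mrpl32 stood apart from the rest of its family in each. With the window of 5 kb, the next-highest PPAR-alpha score was 15.5, at Mrpl58.

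The bases between the Mrpl32 and Psma2 starts are shown because they hold all 3 summits. They cover chr13:14613038-14613241 of GRCm38.p6 (RefSeq), minus strand, and run from the Psma2 side towards the Mrpl32 start. Capitals mark matches to GCATGCGC, the core of the site for NRF1, an activator of genes for mitochondrial proteins, read on either strand.
Mrpl32: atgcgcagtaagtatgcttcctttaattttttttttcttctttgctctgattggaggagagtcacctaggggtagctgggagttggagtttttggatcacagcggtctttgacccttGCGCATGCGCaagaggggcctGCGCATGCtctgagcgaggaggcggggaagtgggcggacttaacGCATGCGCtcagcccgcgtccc
The capitals hold 4 matches, of which the first pair overlaps, at −87 to −80, −85 to −78, −66 to −59 and −22 to −15 relative to the Mrpl32 start. The p53 summits lay at −103 in replicate 1 and −63 in replicate 2, and the PPAR-alpha summit lay at −68. The replicate 2 summit therefore fell inside a match, and the PPAR-alpha summit fell 2 bp from the same match. A match is a description of letters and does not show that NRF1 was bound.

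**Figure D1:**
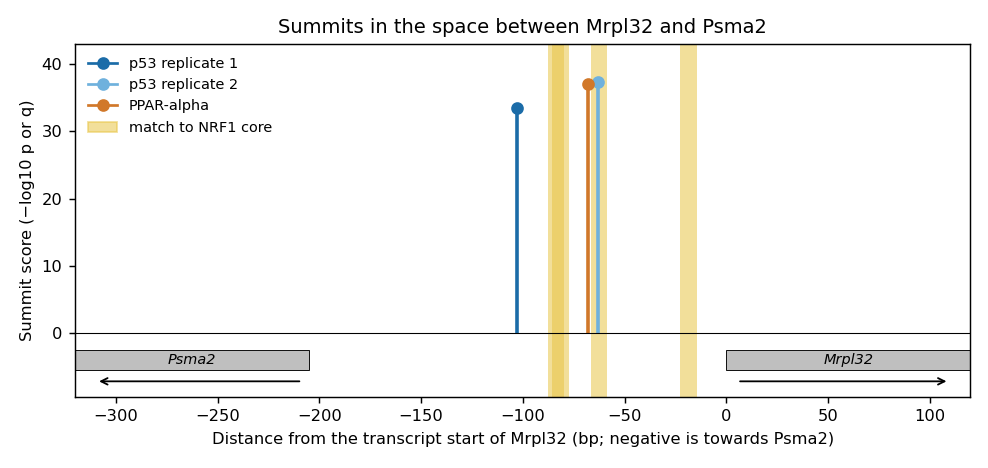
Summit scores (−log10 of p or q, vertical axis) against distance from the Mrpl32 transcript start in bp, with negative values towards Psma2, grey boxes for the genes, arrows for their direction and yellow bands for matches to the NRF1 core. The summits at −103, −63 and −68 bp all lie between the gene starts.

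Within the whole lists, the Mrpl32 summit ranked 50 of 3608 in p53 replicate 1, 49 of 4767 in p53 replicate 2 and 94 of 4070 in the PPAR-alpha list. Among summits within 1 kb of any coding gene end it ranked 2 of 1776 and 3 of 2337 in the p53 replicates and 25 of 1711 in the PPAR-alpha library. The distance to the Psma2 end was 102 bp in p53 replicate 1, 142 bp in p53 replicate 2 and 137 bp in the PPAR-alpha list. The positions do not assign the summit to either gene of the pair.

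Across the family, 20 members (25.6%) lay near a summit in p53 replicate 1 and 21 (26.9%) in p53 replicate 2, where all coding genes gave 9.21% and 11.9%. In the PPAR-alpha list it was 16 members (20.5%), where all coding genes gave 8.80%. The exact 95% intervals of the members were 16.4 to 36.8% and 17.5 to 38.2% in the p53 replicates and 12.2 to 31.2% in the PPAR-alpha library. Their lower bounds lay above the shares of the other 21809 genes, which were 9.15% and 11.8% in the p53 replicates and 8.75% in the PPAR-alpha library. The members exceeded those genes by 16.5 and 15.1 percentage points in the p53 replicates, a mean of 15.8 ± 0.974 (SD, n = 2 libraries), and by 11.8 points in the PPAR-alpha library. These intervals cover counting error only, and genes are not replicates of a condition, so no test was made.

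At 5 kb the members near a summit were 25 in p53 replicate 1 and 24 in p53 replicate 2, where all coding genes gave 12.9% and 16.4%. The PPAR-alpha list had 19 members within 5 kb, where all coding genes gave 12.3%. In both p53 lists together it was 12 members (15.4%) within 1 kb, where all coding genes gave 5.07%. In all 3 lists it was 8 members (10.3%), where all coding genes gave 2.80%. At least 1 list had a summit near 32 members (41.0%), where all coding genes gave 19.0%. At 5 kb it was 13 members in both p53 lists, where all coding genes gave 7.96%, and 9 in all 3 lists, where all coding genes gave 4.87%. Within 5 kb at least 1 list had a summit near 39 members (50.0%), where all coding genes gave 24.7%. The remaining 39 had none within 5 kb, and 46 had none within 1 kb, in any list.

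Most of these summits were of modest score. With a score of 5 or more required, 12 members (15.4%) lay near a summit in p53 replicate 1, where all coding genes gave 3.01%. It was 7 members (8.97%) in p53 replicate 2, beside 3.67%, and 4 (5.13%) in the PPAR-alpha list, beside 4.12%. The exact lower bounds for p53, 8.21% and 3.68%, lay above those shares, the second barely. The exact interval for PPAR-alpha, 1.41 to 12.6%, held the share of all coding genes. The PPAR-alpha excess of members thus lay mostly among summits scoring under 5. With 10 or more, all coding genes gave 0.512% in p53 replicate 1, 0.516% in p53 replicate 2 and 1.37% in the PPAR-alpha list. The members were 2 (2.56%) in p53 replicate 1 and 1 (1.28%) in each other list. Mrpl32 was among them in each list, and Mrpl52 was the other member in p53 replicate 1. The median score of member summits was 5.85 in p53 replicate 1, 2.97 in p53 replicate 2 and 4.70 in the PPAR-alpha list, beside 3.99, 3.62 and 4.70 for all summits near a coding gene. Members thus lay above that median in one p53 library and below it in the other.

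**Figure D2:**
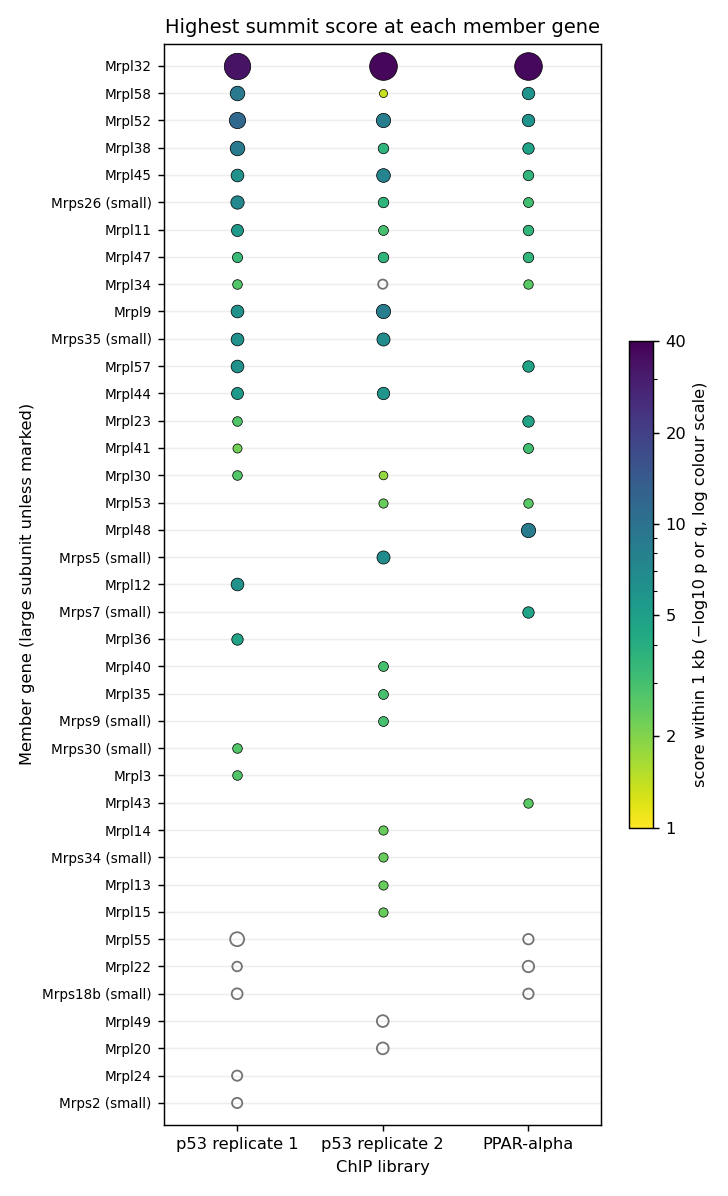
Highest summit score (−log10 of p or q, colour on a log scale and circle size) at each member in the 3 libraries. Filled circles are summits within 1 kb, open circles mark members whose nearest summit in that list lay between 1 and 5 kb, and the 39 members with none are not drawn. Mrpl32 is the darkest and largest in all 3 columns, and most other circles score under 10.

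The other members in all 3 lists were Mrpl52, Mrpl38, Mrpl45, Mrps26, Mrpl11, Mrpl47 and Mrpl58. Mrpl52, a large-subunit protein gene on chromosome 14, scored 11.6 in p53 replicate 1, 8.48 in p53 replicate 2 and 5.91 in the PPAR-alpha list. Relative to the transcript start, where negative is upstream, its p53 summits lay at −39 and 1 bp and its PPAR-alpha summit at −152 bp. Mrpl45 encodes a large-subunit protein near the exit of the nascent chain that helps hold the ribosome at the inner membrane. Its scores were 6.24 in p53 replicate 1, 7.58 in p53 replicate 2 and 3.58 in the PPAR-alpha list, with the p53 summits at −20 and −115 bp and the PPAR-alpha summit at −123 bp. Both genes scored higher in either p53 library than in the PPAR-alpha list, but scores of separately called lists are not on a common scale.

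Mrpl47 on chromosome 3 faces Ndufb5, which encodes a subunit of respiratory complex I, and their starts lay 302 bp apart. Its scores were nearly level, at 3.34 in p53 replicate 1, 3.62 in p53 replicate 2 and 3.58 in the PPAR-alpha list. The p53 summits lay at −103 and −70 bp from the Mrpl47 start and the PPAR-alpha summit at −472 bp, which is beyond the Ndufb5 start. Mrps26, the single small-subunit gene in all 3 lists, scored 7.07 and 3.62 in the p53 replicates and 3.06 in the PPAR-alpha library. Its summit in p53 replicate 1 lay 146 bp inside the gene, that in p53 replicate 2 at −321 bp and the PPAR-alpha summit at −339 bp. Mrpl11 encodes a protein at the base of the stalk where translation factors dock, and it scored 5.45 and 2.97 in the p53 replicates and 3.58 in the PPAR-alpha library.

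Promoter bases are shown, for comparison with the Mrpl32 space, for the members with the highest lowest-of-3 score that have an entry in the promoter table. Mrpl38, whose lowest score of 3.62 would place it among them, has no entry. Each line gives the 250 bases upstream of an annotated start, 5′ to 3′ on the strand of the gene, from RefSeq on GRCm38.p6. The windows are chr14:54426659-54426908 (plus) for Mrpl52, chr11:97315466-97315715 (plus) for Mrpl45, chr3:32736756-32737005 (minus) for Mrpl47 and chr2:130563507-130563756 (plus) for Mrps26. Capitals mark a match on either strand to CCGGAAG, an ETS site (Mrpl52 and Mrps26), or to AGGTCA, the half-site of PPAR and related nuclear receptors (Mrpl47).
Mrpl52: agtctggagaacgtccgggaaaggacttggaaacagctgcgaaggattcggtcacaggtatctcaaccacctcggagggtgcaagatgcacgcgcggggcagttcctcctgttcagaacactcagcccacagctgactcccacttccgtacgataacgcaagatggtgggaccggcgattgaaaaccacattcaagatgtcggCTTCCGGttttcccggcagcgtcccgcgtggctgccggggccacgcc
Mrpl45: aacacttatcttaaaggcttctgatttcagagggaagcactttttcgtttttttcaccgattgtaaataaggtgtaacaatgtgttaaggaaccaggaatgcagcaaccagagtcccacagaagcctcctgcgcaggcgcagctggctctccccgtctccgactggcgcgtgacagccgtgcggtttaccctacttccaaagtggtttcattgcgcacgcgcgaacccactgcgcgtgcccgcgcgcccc
Mrpl47: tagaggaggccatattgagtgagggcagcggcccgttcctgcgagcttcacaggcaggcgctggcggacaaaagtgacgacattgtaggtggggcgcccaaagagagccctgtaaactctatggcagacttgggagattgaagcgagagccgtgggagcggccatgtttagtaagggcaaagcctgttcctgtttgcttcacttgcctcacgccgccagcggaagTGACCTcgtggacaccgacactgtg
Mrps26: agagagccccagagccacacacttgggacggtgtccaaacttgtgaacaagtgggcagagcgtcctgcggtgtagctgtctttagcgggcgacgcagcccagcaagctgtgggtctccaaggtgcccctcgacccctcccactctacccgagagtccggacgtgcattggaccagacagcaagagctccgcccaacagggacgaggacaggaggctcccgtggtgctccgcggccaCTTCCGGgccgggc
The ETS match of Mrpl52 stood at −47 to −41 and that of Mrps26 at −14 to −8. The AGGTCA match of Mrpl47 stood at −25 to −20, whereas its PPAR-alpha summit lay at −472. Mrpl45 held no match to any motif as searched, although it had a summit in every list, the farthest at −123 bp. The NRF1 search took the exact letters GCATGCGC only. The Mrpl45 bases hold gcacgcgc, a close variant that the search did not count, so a site of NRF1 type is not shown to be absent.

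Mrpl58 and Mrpl38 reached all 3 lists in a looser way. Mrpl58 encodes a peptidyl-tRNA hydrolase of the large subunit that frees stalled ribosomes. Its highest scores within 1 kb were 8.81 in p53 replicate 1, 1.34 in p53 replicate 2 and 5.91 in the PPAR-alpha list, and 1.34 was the lowest score in its list. Inside the gene, more than 3 kb from either end, each list held a further pair of summits, and the highest scored 5.45 and 6.72 in the p53 replicates and 15.5 in the PPAR-alpha library. Mrpl38 scored 8.81 and 3.62 in the p53 replicates and 4.70 in the PPAR-alpha library. Its summits lay 904, 872 and 936 bp from the nearer Mrpl38 end, but 500, 468 and 532 bp from the end of Trim65, so they were nearer to the neighbour.

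Where both p53 lists had a summit near the same member, the positions were often close. Of 12 such members, 7 (58.3%) had p53 summits within 100 bp of each other, with a median gap of 69 bp, while among other genes 44.9% did, with a median of 128 bp. Between p53 replicate 1 and the PPAR-alpha list it was 3 of 12 members (25%), with a median gap of 168.5 bp. Between p53 replicate 2 and the PPAR-alpha list it was 4 of 9 members (44.4%), with a median gap of 153 bp. Among other genes 40.2% and 40.7% were that close in these comparisons. These counts are small, and the gap was not tested.

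Members with a summit in both p53 lists and none within 5 kb in the PPAR-alpha list were Mrpl9, Mrps35, Mrpl44 and Mrpl30. Mrpl9 scored 6.24 and 8.48 in the p53 replicates, at −29 and 14 bp from a start. Mrps35 scored 6.24 and 6.72. Mrpl44 encodes a large-subunit protein with an RNase III-like fold, and it scored 5.45 and 5.88 with the summit on the same base in both lists, position 79776049 of chromosome 1. That base lay 31 bp inside Mrpl44 and 94 bp from the end of its neighbour Wdfy1. Mrpl30, which faces Mitd1 across 28 bp, scored 2.74 and 1.83. Apart from Mrpl30, all scored above 5 in both p53 libraries.

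PPAR-alpha summits without a p53 summit within 5 kb stood at Mrpl48, Mrps7 and Mrpl43. Mrpl48 scored 8.57, the second-highest PPAR-alpha score of the family within 1 kb, with its summit at −164 bp from an annotated start and 211 bp from the end of Rab6a, a GTPase of Golgi traffic. Mrps7, a small-subunit gene, scored 4.70. Mrpl43 scored 2.57 and faces Twnk, which encodes the helicase that unwinds mitochondrial DNA for replication. With 1 PPAR-alpha library, the absence of a summit in a list has no replicate check and is not evidence of absent binding.

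Some members had a summit in only 1 of the p53 lists, as did many other genes. Members near a summit were 20 and 21 in the p53 replicates, with 12 in both. Among the other 21809 genes the counts were 1996 and 2576, with 1098 in both. Partial overlap of the p53 lists was thus not particular to the family. Mrpl57, Mrpl23, Mrpl41 and Mrpl34 had summits within 1 kb in p53 replicate 1 and the PPAR-alpha list but not in p53 replicate 2, with p53 scores of 2.18 to 6.24. Mrpl53 had them in p53 replicate 2, at 2.37, and in the PPAR-alpha list, at 2.57. Mrpl12, whose product forms the flexible stalk of the large subunit, had a summit in p53 replicate 1 alone, at 6.24 and 3 bp inside the gene. Mrpl36, Mrps30 and Mrpl3 were also in that list alone. Mrps5 had a summit in p53 replicate 2 alone, at 6.72 and −159 bp from the start, between Mrps5 and Zfp661. The other 7 in that list alone, Mrps9, Mrpl35, Mrpl40, Mrpl13, Mrpl14, Mrpl15 and Mrps34, scored 2.37 or 2.97.

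Just inside the limit of 1 kb stood Mrpl34 at 967 bp in p53 replicate 1 and Mrpl38 at 936 bp in the PPAR-alpha list. Just outside stood Mrpl36 at 1102 bp and Mrpl24 at 1474 bp in p53 replicate 1 and Mrpl22 at 1658 bp in the PPAR-alpha list. Those outside lay 67, 61 and 37 bp from the only start of the gene in the promoter table, which lay inside the gene. The window by gene end thus left out summits close to such starts. Mrpl36 was still counted in p53 replicate 1, through another summit 321 bp from its end. Members with summits only between 1 and 5 kb were Mrpl55, Mrpl22, Mrps18b, Mrpl49, Mrpl20, Mrpl24 and Mrps2.

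Large-subunit genes lay near a summit more often than small-subunit genes in every list. In p53 replicate 1 it was 17 of 49 large-subunit genes (34.7%, exact 95% interval 21.7 to 49.6%) and 3 of 29 small-subunit genes (10.3%, 2.19 to 27.4%). In p53 replicate 2 it was 16 large-subunit genes (32.7%, 19.9 to 47.5%) and 5 small-subunit genes (17.2%, 5.85 to 35.8%). In the PPAR-alpha list it was 14 large-subunit genes (28.6%, 16.6 to 43.3%) and 2 small-subunit genes (6.90%, 0.846 to 22.8%). All coding genes gave 9.21% in p53 replicate 1, 11.9% in p53 replicate 2 and 8.80% in the PPAR-alpha list. Those shares lay below the large-subunit interval and inside the small-subunit interval in each list. The small-subunit genes were thus not set apart from coding genes in general. The intervals of large and small subunit overlapped in each list. The difference was 24.3 and 15.4 points in the p53 replicates, a mean of 19.9 ± 6.32 (SD, n = 2 libraries), and 21.7 points in the PPAR-alpha list. At 5 kb the p53 mean was 22.6 ± 1.44 points (SD, n = 2 libraries).

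Both differences depended on how summits were counted. Among summits scoring 5 or more the difference was 8.41 points for p53 and 8.16 points for PPAR-alpha. When each summit was given to its nearest gene alone it was 9.68 points for p53 and 11.5 points for PPAR-alpha, and with a window of 500 bp it was 11.7 points for p53 and 13.5 points for PPAR-alpha. In all 3 lists stood 7 large-subunit genes and 1 small-subunit gene, Mrps26. Of the 46 members with no summit within 1 kb, 24 were large-subunit and 22 small-subunit genes. The structure of the mammalian mitoribosome places the products of Mrps30 and Mrps18a in the large subunit, and Mrps36 is now assigned to the oxoglutarate dehydrogenase complex. Mrps30 had a summit scoring 2.74 in p53 replicate 1, and Mrps18a and Mrps36 had none within 5 kb. Grouping the members by structure gave a difference of 19.9 points for p53 and 19.8 points for PPAR-alpha, close to the grouping by symbol. That grouping left out 5 ribosomal subunits whose symbols are not Mrpl or Mrps, among them the small-subunit gene Dap3. PPAR-alpha had a summit near 3 of these 5, Dap3 included, while p53 replicate 1 had 2 and p53 replicate 2 had 1. The subunit difference with them included was not tested.

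**Figure D3:**
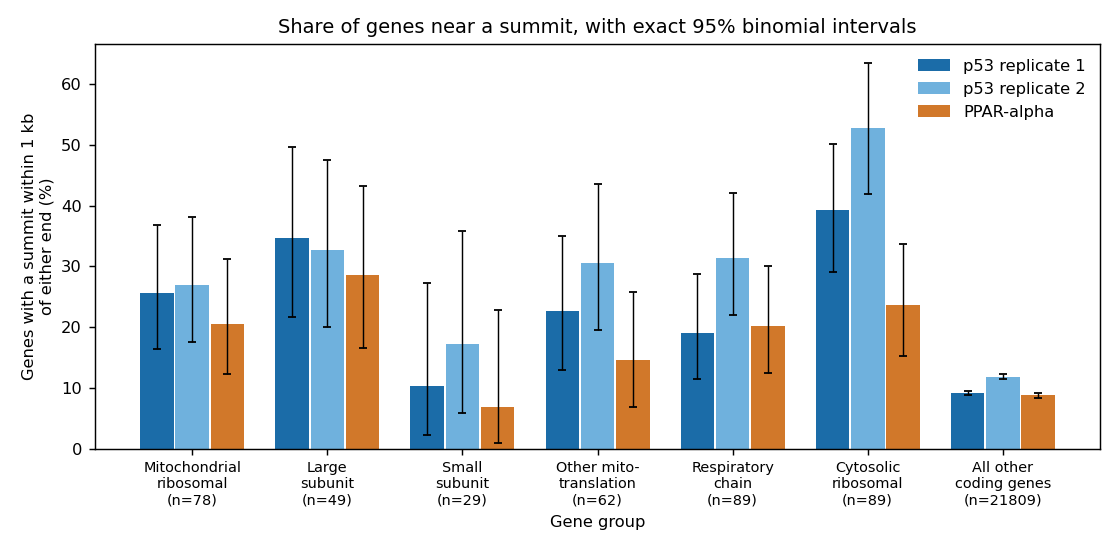
Share of genes with a summit within 1 kb of either end (percent), for the members, their subunits, 3 comparison groups and all other coding genes, by library, with exact 95% binomial intervals as error bars. The members and the large subunit stand above all other coding genes in each library, the small subunit overlaps them, and cytosolic ribosomal genes reach 52.8% in p53 replicate 2.

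Mitochondrial ribosomal protein genes are short and often sit beside another gene. Their median length was 7690.5 bp, against 17224 bp in the other coding genes. A coding gene overlapped them or had an end within 1 kb in 47 of 78 members (60.3%), against 31.5% of the other genes. The neighbour was present for 31 of 49 large-subunit genes (63.3%) and 16 of 29 small-subunit genes (55.2%). Mrpl46 and Mrps11 are each other's neighbour, with starts 42 bp apart, and neither had a summit within 5 kb in any list.

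A smaller share of members with a close neighbour than of members without lay near a p53 summit, with overlapping intervals. In p53 replicate 1 it was 10 of 47 members with a neighbour (21.3%, exact 95% interval 10.7 to 35.7%) and 10 of 31 without (32.3%, 16.7 to 51.4%). In p53 replicate 2 it was 11 with a neighbour (23.4%, 12.3 to 38.0%) and 10 without (32.3%, 16.7 to 51.4%). The difference was −11.0 and −8.85 points, a mean of −9.92 ± 1.5 (SD, n = 2 libraries), and the intervals overlapped widely. In the PPAR-alpha list it was 10 members with a neighbour (21.3%, 10.7 to 35.7%) and 6 without (19.4%, 7.45 to 37.5%), a difference of 1.92 points that turned to −2.40 points at 5 kb.

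Among the other coding genes the difference ran the opposite way for p53. Genes with a neighbour were near a summit in 14.2% and genes without in 6.82% of cases in p53 replicate 1, a difference of 7.41 points. In p53 replicate 2 it was 18.7% with a neighbour and 8.65% without, and in the PPAR-alpha list 13.7% with and 6.48% without. Members without a neighbour thus stood further above other genes without a neighbour than members with a neighbour stood above theirs. The difference between these differences was not tested, since genes are not replicates. With each summit given to its nearest gene alone, the member difference was −20.6 points for p53 and −8.72 points for PPAR-alpha. That rule takes a summit from a member only where another gene end is closer, which is mainly beside a close neighbour. The shift therefore follows largely from the rule and adds nothing to the comparison.

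Members were also counted by the arrangement of the pair, and the intervals of the arrangements overlapped in each list. In 27 members, 19 of them large-subunit genes, the neighbour lay head to head, which means on the opposite strand with the starts within 1 kb. Of these, 7 (25.9%) and 6 (22.2%) lay near a summit in the p53 replicates and 8 (29.6%) in the PPAR-alpha library. Head-to-head genes outside the family gave 23.1% and 30.4% in the p53 replicates and 21.0% in the PPAR-alpha library, inside the intervals of the members. Of 11 members with a neighbour in another arrangement, 4 of them large-subunit genes, 1 lay near a summit in p53 replicate 1 and 0 in the other lists, where the exact upper bound was 28.5%. Other genes in that arrangement gave 10.3% and 13.9% for the p53 replicates and 10.6% for PPAR-alpha, inside the intervals of the members. A further 9 members had a neighbour but no strand in the promoter table for 1 gene of the pair, among them Mrpl38 and Mrpl44. Of these, 2 lay near a summit in p53 replicate 1, 5 in p53 replicate 2 and 2 in the PPAR-alpha list. Other genes of that kind gave 12.4% and 15.7% for the p53 replicates and 11.9% for PPAR-alpha.

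**Figure D4:**
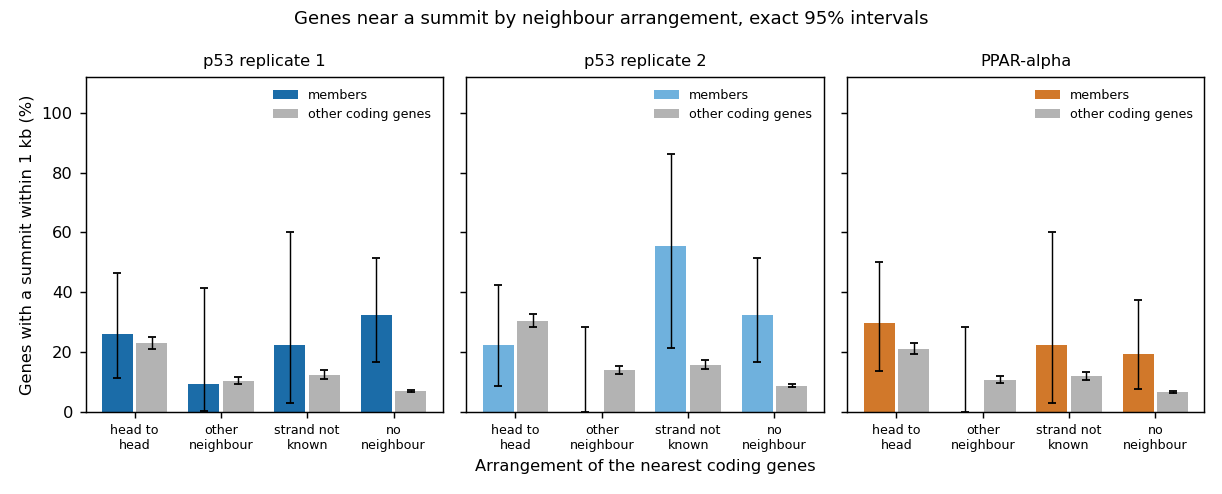
Share of genes with a summit within 1 kb (percent) by arrangement of the nearest coding genes, for members (coloured) and other coding genes (grey) in the 3 libraries, with exact 95% binomial intervals. Among members without a neighbour the p53 share is 32.3% in both replicates, against 6.82% and 8.65% of other genes without one.

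Next to a neighbour, a summit could as well belong to either gene. Of member summits beside a neighbour, the end of the neighbour was the nearer in 6 of 10 in p53 replicate 1, 4 of 11 in p53 replicate 2 and 5 of 10 in the PPAR-alpha list. Every such summit lay within 1 kb of the neighbour too. Besides Psma2, Ndufb5 and Twnk, neighbours of members with a summit included Ndufs6, a complex I subunit gene 21 bp from Mrpl36, and Hira, a histone chaperone gene that faces Mrpl40. Sars2, the mitochondrial seryl-tRNA synthetase gene that faces Mrps12, and Fau, a ribosomal protein gene that faces Mrpl49, had no summit within 1 kb of the member in any list.

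Most member summits were nearer to the gene start than to the far end. The same count was not made over all coding genes, so it is not shown to be particular to the family. For members with a known strand, 18 of 18 summits in p53 replicate 1, 15 of 16 in p53 replicate 2 and 15 of 16 in the PPAR-alpha list were nearer to the start. For the summits nearer to the start alone, the median distance from the nearest annotated start was 103.5 bp in p53 replicate 1. It was 70 bp in p53 replicate 2 and 123 bp in the PPAR-alpha list. Within 100 bp of a start lay 7 summits of p53 replicate 1, 9 of p53 replicate 2 and 5 of the PPAR-alpha list. Summits fell on both sides of the start, with 11 upstream and 7 downstream in p53 replicate 1.

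**Figure D5:**
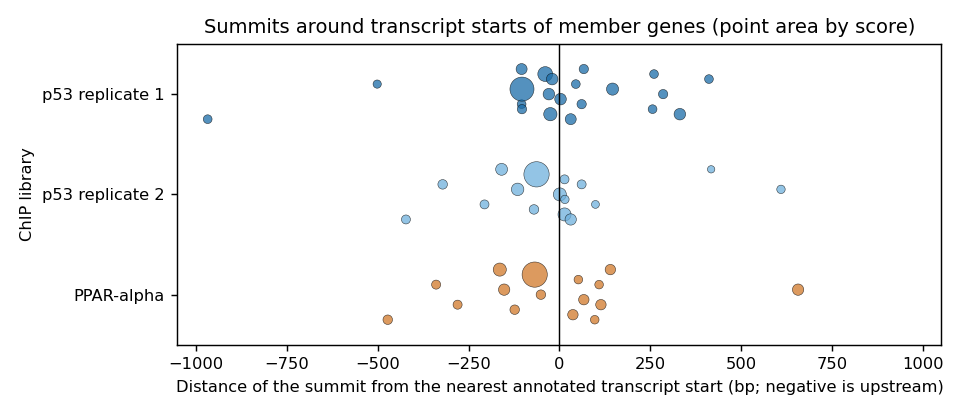
Distance in bp of member summits from the nearest annotated transcript start of their gene (negative is upstream), by library. Only summits within 1 kb of a start are drawn, some of them over 1 kb from a gene end. Members without a known strand are left out. Point area is set by score, and points are spread vertically only to keep them apart. Most points lie within 250 bp of the start, and the largest in each library is Mrpl32.

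Promoters of the family were searched for short motifs on both strands, in windows of 250 bases before to 50 after each annotated start, for 69 members with 75 promoters. The ETS motif CCGGAAG stood in 34.7% of member promoters and 11.5% of the promoters of other genes. The NRF1 core GCATGCGC stood in 10.7% of member promoters and 3.49% of others, and the YY1 motif AAGATGGC in 16% of member promoters and 3.01% of others. The half-site AGGTCA stood in 14.7% of both. An exact pair of such half-sites 1 base apart, a strict form of the full PPAR element, occurred in 0 member promoters and 0.0472% of other promoters. A p53 half-site occurred in 8% of member promoters and 7.37% of other promoters, and a full p53 site in 0 and 0.0472%. Each full element matched only 10 of 21188 other promoters. At that rarity, 0 of 75 member promoters says nothing about the family, and looser matches were not searched. The p53 and PPAR half-sites were thus about as frequent in the family as elsewhere, while the ETS, NRF1 and YY1 motifs were more frequent.

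Promoters of members with a summit carried these 3 motifs less often than promoters of members without. The counts were small, and the difference was not tested. The 30 promoters with a summit came from 27 genes and the 45 without from 42. Genes with several starts thus counted more than once, such as Mrpl48 with 4 promoters. The ETS motif stood in 30% of 30 promoters of members with a summit within 1 kb in any list and in 37.8% of 45 promoters of members with none. The NRF1 core stood in 2 of 30 promoters with a summit (6.67%) and 6 of 45 without (13.3%). The YY1 motif stood in 4 of 30 with a summit (13.3%) and 8 of 45 without (17.8%). The half-site AGGTCA stood in 7 of 30 with a summit (23.3%) and 4 of 45 without (8.89%), and the p53 half-site in 6.67% with and 8.89% without. Median GC content was 58.7% in member promoters, against 56.3% in the promoters of other genes, and the median number of CpG was 21 against 13. GC content and CpG number thus moved with membership, and their part in the summit counts was not tested.

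Other genes of mitochondrial translation gave shares of similar size. Of 62 such genes, 14 (22.6%) lay near a summit in p53 replicate 1, 19 (30.6%) in p53 replicate 2 and 9 (14.5%) in the PPAR-alpha list. Among 14 translation factors it was 2 in p53 replicate 1, 4 in p53 replicate 2 and 1 in the PPAR-alpha list. Among 19 mitochondrial tRNA synthetases the counts were 4 and 7 for the p53 replicates and 2 for PPAR-alpha. For 24 assembly factors they were 6 and 7 for the p53 replicates and 3 for PPAR-alpha, and for 5 ribosomal subunits with other names 2 and 1 for the p53 replicates and 3 for PPAR-alpha. The synthetase genes Gars, whose product also serves the cytosol (8.81 and 5.88 in the p53 replicates, 5.30 for PPAR-alpha) and Yars2 (6.24 and 7.58 in the p53 replicates) led their group. Dap3, a small-subunit protein first described in cell death, scored 3.99 in p53 replicate 1 and 7.88 in the PPAR-alpha list within 1 kb. Within 5 kb, Dap3 also had a summit in p53 replicate 2, at 5.88, and its highest PPAR-alpha score was 34.0. Lrpprc, which stabilises mitochondrial messenger RNA, scored 3.34 and 2.37 in the p53 replicates and 34.0 in the PPAR-alpha library, the only gene of these 62 to pass 10 within 1 kb.

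The ribosome of the cytosol and the respiratory chain were the most similar groups by function. Cytosolic ribosomal protein genes lay near a summit in 35 of 89 (39.3%, exact 95% interval 29.1 to 50.3%) and 47 of 89 (52.8%, 41.9 to 63.5%) in the p53 replicates, and in 21 of 89 (23.6%) in the PPAR-alpha library. The p53 replicate 2 interval lay above that of the mitochondrial ribosomal genes, 17.5 to 38.2%, whereas the p53 replicate 1 intervals overlapped. Respiratory chain genes gave 17 of 89 (19.1%) and 28 of 89 (31.5%) in the p53 replicates and 18 of 89 (20.2%) in the PPAR-alpha library. Their intervals overlapped those of the mitochondrial ribosomal genes in each list. High PPAR-alpha scores were more numerous among respiratory chain genes, where 6 scored 10 or more, against 1 mitochondrial ribosomal gene, and the top ones were Atp5b at 54.4 and Uqcrh at 40.2.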

How the data were processed

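Per the labels, ChIP-seq libraries from thymus were made with paired-end indexing. The submitters' processing notes name MACS2 2.1.2, Picard 2.9.0 and Bowtie2 2.3.4.2, with no roles, and a human build for mouse tissue. The authors deposited 1 summit list per ChIP library, called separately, with a score whose form and range were read as −log10 of a p- or q-value. On GRCm38, 42.0 to 49.2% of summits lay within 1 kb of a coding gene end, against 6.46 to 8.08% after moving them by 10 kb, so that build was used. Read depth is unknown here, and the input was not analysed.

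Gene ends came from the RefSeq table, and strand, starts and promoters from the RefSeq promoter table, which held 69 of 78 members. Distances were taken with Python 3.11.15 and pandas 2.3.3, and the code recovered 200 of 200 planted distances in simulated data. Shares carry exact Clopper-Pearson 95% intervals from scipy 1.17.1, for counting error only. Positions are 1-based. Each list had 1 score per summit, and many summits shared a score, so ranks contain ties.

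Named members were those in all 3 lists, the 6 highest scores per list, those in both p53 lists or the PPAR-alpha list alone, and up to 3 genes per comparison list. Others were named after their values were seen. The members and lists were chosen with earlier results of these data known. Alternatives changed the window, score, gene assignment, neighbour rule, subunit grouping and libraries used.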

Additional observations from a re-analysis of the deposited data

How the results depend on the processing

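Over the alternatives tried, 6 values changed sign, 25 moved beyond their margin and 73 stayed within it. The margin was 1.5 times for counts, the SD between replicates for p53 differences and the 95% counting interval for PPAR-alpha differences. That interval is wide, so PPAR-alpha differences within it still moved: large minus small subunit was 8.16 points with a score of 5 or more, 11.5 with the nearest gene only and 13.5 with 500 bp, and the neighbour difference reached 5.08. Among summits scoring 5 or more, the members near a p53 summit averaged 9.5 and those near a PPAR-alpha summit numbered 4, with 6 in both p53 lists and 2 in all 3 lists. The p53 difference of large minus small subunit was then 8.41 points, and the PPAR-alpha difference of members with minus without a neighbour −2.20. With a score of 10 or more the counts were 1.5, 1, 1 and 1, with 1 member whose p53 summits lay within 100 bp. The subunit differences were then 3.06 points for p53 and 2.04 for PPAR-alpha, and the p53 neighbour difference 0.515. With the nearest gene only, 5 members stood in all 3 lists, the p53 subunit difference was 9.68, and the neighbour differences were −20.6 for p53 and −8.72 for PPAR-alpha. A window of 500 bp gave a p53 subunit difference of 11.7. The PPAR-alpha neighbour difference was −1.30 with 2 kb, −2.40 with 5 kb and −1.30 with summits inside genes added. The p53 neighbour difference was −8.34 with 2 kb, −6.21 with summits inside genes added and −6.69 without dense runs of summits. It was −5.56 with neighbours within 5 kb, −5.89 with neighbours of any gene type and −5.55 when overlap alone did not count. With p53 summits within 500 bp called shared, 12 members shared one. By construction, a stricter score or window leaves fewer summits, and the nearest-gene rule takes summits mainly from members with a close neighbour. The cause of these moves was otherwise not tested.

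Leaving out each p53 replicate in turn gave 20 to 21 members near a p53 summit, 20 to 21 for the count that otherwise needs both p53 lists, and 9 to 12 for all lists. The subunit difference was 15.4 to 24.3 points and the neighbour difference −11.0 to −8.85 points. Leaving out Mrpl32, an alternative chosen after seeing the data, changed no count beyond 1.5 times. No paired analysis was possible because the PPAR-alpha and p53 libraries share only 1 replicate number and no result came from a fitted test. The single PPAR-alpha library, the unknown depth and the few members limit every share.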
